A study of Mus musculus with 11 samples.

Results

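Heme is built from glycine and succinyl-CoA by a chain of enzymes, and PU.1 occupancy was measured here at 8 of their genes in mouse erythroid cells. The genes are Alas1, Alas2, Alad, Uros, Urod, Cpox, Ppox and Fech, taken by name from the 22359 protein-coding genes of the annotation. Each gene was read as its body with 10 kb on each side, which gave 570 of 5309802 windows of 500 bp over the genome. PU.1 belongs to the Ets factors and is known for its role in myeloid and B cells, and immature erythroid cells also contain it until they differentiate.

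The pathway starts in the mitochondrion, where an aminolevulinate synthase joins glycine and succinyl-CoA. Alas1 encodes the synthase that most tissues use and Alas2, on the X chromosome, the form made in erythroid cells, where it sets the pace of heme supply for hemoglobin. Alad, Uros and Urod encode enzymes of the cytosolic steps, which turn aminolevulinate into porphobilinogen, close the uroporphyrinogen ring and remove carboxyl groups from it. Cpox and Ppox encode the oxidases that lead back into the mitochondrion to protoporphyrin, and Fech encodes ferrochelatase, which inserts the iron.

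On the mm9 (NCBIM37) assembly with GENCODE annotation, Alas1 (ENSMUSG00000032786.8) is on chromosome 9 between bases 106135786 and 106150457, minus strand, and Alas2 (ENSMUSG00000025270.7) on chromosome X between 146981918 and 147005181, plus strand. Alad (ENSMUSG00000028393.4) and Urod (ENSMUSG00000028684.8) share chromosome 4, at 62170203 to 62180952 and 116662570 to 116667018, both on the minus strand. Uros (ENSMUSG00000030979.6) is on chromosome 7 at 140877926 to 140901755, minus strand. The oxidases are on chromosome 16 (Cpox, ENSMUSG00000022742.5, 58670321 to 58680504, plus strand) and chromosome 1 (Ppox, ENSMUSG00000062729.5, 173206121 to 173211317, minus strand). Fech (ENSMUSG00000024588.7), the longest of the 8, is on chromosome 18 at 64616204 to 64648720, minus strand. No pair of the 8 regions overlaps.

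Chromatin immunoprecipitation and sequencing (ChIP-Seq) counts DNA fragments recovered with an antibody, here against PU.1 (T-21), and compares them with input DNA. MEL cells are a mouse erythroleukemia line, and those used were 1 clone that stably carries Gata-1 fused to ER, grown with serum and puromycin. ES-EP are erythroid progenitors derived from mouse ES cells and kept dividing with Epogen, stem cell factor, IGF-1 and dexamethasone. The cell types therefore differ in origin, transgene and medium at once, which cannot be told apart in a comparison of the cell types. The labels were read as 2 preparations of ChIP DNA for each cell type, A and B, each sequenced as 2 libraries. The labels do not say so in words. The libraries of a preparation were summed here, so that n = 2 preparations, with 1 input library for MEL cells and 2 for ES-EP. No RNA was among the files, so the cell type labels could not be checked against marker transcripts.

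A preparation held between 5697937 and 7095855 reads on the assembled chromosomes, and the inputs held 4278560 reads in MEL cells, against 7488885 in ES-EP. At this depth the median 500 bp window of each of the 8 regions held 1 to 5 reads of a preparation. Reads scaled to a depth of 1000000 are written as RPM. Ratios of ChIP to input are scaled by the same depths, and intervals given with them are 95% intervals from the exact (Clopper-Pearson) binomial limits, which cover counting error only.

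By the Poisson test of windows described below, the most prominent PU.1 signal at the 8 genes lay inside Alas2. It was in the first intron (mm9 chromosome X, bases 146982029 to 146986691), about 2.6 kb downstream of the start of transcription. It filled 2 neighbouring windows, and the densest points of the reads in them lay 2580 and 2640 bp downstream of the start, so both were read as 1 site. The 200 bases around the second of these points are printed because its window had the smallest Poisson p in both cell types. In MEL cells the window of Cpox at 430 bp came close to it, with a Poisson p of 4.00e-17 against 2.27e-18. By the ratio of ChIP to input a window of Alad was higher in ES-EP, 15.7 against 10.2. The printed bases come from the NCBIM37 (mm9) genome at chrX:146984458-146984657 on the plus strand. The capitals mark AGATAA, a word that GATA factors bind.
Alas2 intron: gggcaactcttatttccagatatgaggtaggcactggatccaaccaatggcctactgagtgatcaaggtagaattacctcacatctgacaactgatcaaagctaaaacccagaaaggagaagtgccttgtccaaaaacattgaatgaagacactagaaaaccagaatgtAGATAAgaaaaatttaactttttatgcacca

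Uros also held a site found in both cell types, within its gene body and 7834 bp from the start of transcription taken for the gene. The sequence around its densest point is shown for comparison with Alas2, from chr7:140893811-140894010 on the minus strand, the strand of the gene. None of the 4 words searched occurs in it, so that it is in lower case throughout. The shorter core GGAA, which the paper gives for PU.1 sites, was not searched or marked alone. Lower case in a printed stretch thus does not mean that this core is absent.
Uros intron: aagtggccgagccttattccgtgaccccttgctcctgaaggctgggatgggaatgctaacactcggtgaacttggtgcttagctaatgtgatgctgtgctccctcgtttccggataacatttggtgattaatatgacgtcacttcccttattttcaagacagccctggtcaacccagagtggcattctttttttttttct

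A pair of sites lay beyond the 3′ ends of Alad and Alas1, and these were the ones with the purine-rich word GAGGAA near the densest point. They are printed to show that word in capitals. The Alad stretch is chr4:62166954-62167153 and the Alas1 stretch is chr9:106132499-106132698, both on the minus strand, the strand of both genes. TTCCTC in the Alad stretch is GAGGAA on the other strand.
Alad 3′ flank: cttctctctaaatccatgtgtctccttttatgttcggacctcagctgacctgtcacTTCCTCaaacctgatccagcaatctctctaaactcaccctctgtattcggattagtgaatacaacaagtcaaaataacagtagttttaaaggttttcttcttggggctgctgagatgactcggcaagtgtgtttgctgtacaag
Alas1 3′ flank: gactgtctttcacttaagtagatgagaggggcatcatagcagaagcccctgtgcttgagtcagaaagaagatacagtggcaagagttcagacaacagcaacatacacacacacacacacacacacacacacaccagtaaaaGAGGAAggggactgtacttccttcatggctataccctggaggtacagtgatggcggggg

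PU.1 at the heme genes was first asked for in windows. A window was called above input when a Poisson test of its reads against the largest of the local input values passed a false discovery rate of 0.05, judged by Benjamini-Hochberg adjustment and by exchanging ChIP and input. Of the 570 windows of the 8 genes, 8 were called in MEL cells (1.40%) and 7 in ES-EP (1.23%). Over all windows in the bodies and flanks of protein-coding genes, the share called was 0.701% for MEL cells, and for ES-EP it was 0.446%. At least 1 window was called at 7 of the 8 genes in MEL cells, against 5 of the 8 in ES-EP, beside 54.1% and 40.6% of all protein-coding genes. In MEL cells Alad had no call, and in ES-EP Cpox, Ppox and Fech had none. Which genes had none depended on the setting: Alad had a call in MEL cells with the windows moved by 250 bp or without preparation A, and in ES-EP Fech had one under 3 of the 7 alternatives and Ppox under 1. Against the input of MEL cells, an alternative chosen after seeing the data, Cpox, Ppox and Fech each had a call in ES-EP and Alad had none. Altogether 11 windows were called in either cell type, 4 of them in both. The share of calls found in both over all windows is not given here, so this overlap is a description only. These counts are small, and no test of the 8 genes against other genes was made.

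These counts leaned on 1 preparation in each cell type. Without preparation B no window of the 8 genes was called in MEL cells, and 5305 windows were called over the genome in place of 21686. Without preparation A in ES-EP 2 windows of the 8 genes were left, at Alas2 and Uros, and 3050 over the genome in place of 14613. The Poisson test is on summed reads, and the values of both preparations are therefore given for each site. It takes the local input value as known, so its p-values leave out the counting error of the few input reads. A called window can thus have an exact interval of its ratio that includes 1. This was so at the Fech start in MEL cells (0.924 to 10.2) and in the Alas1 window at 21706 bp in ES-EP (0.937 to 11.3).

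**Figure D1:**
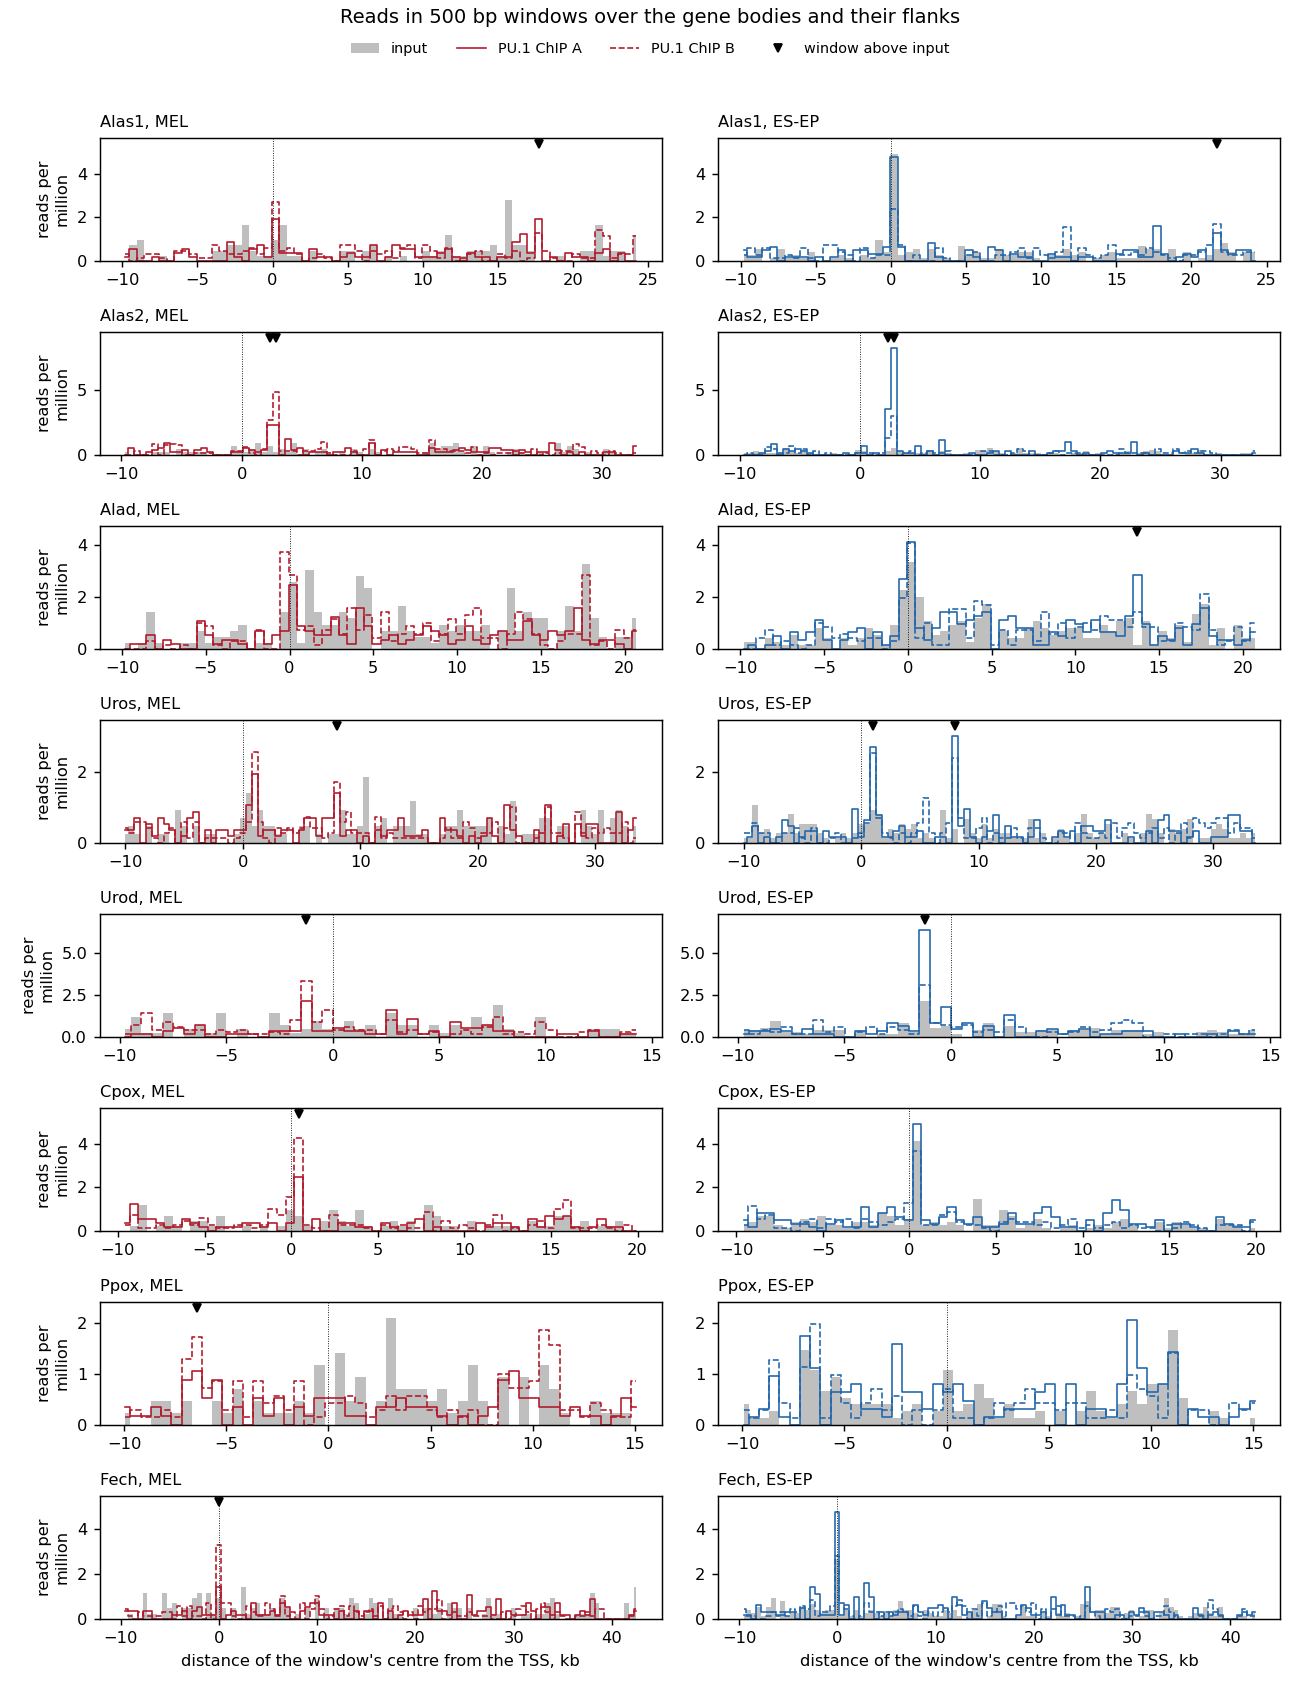
RPM in 500 bp windows (vertical axis) against the distance of the window's centre from the start of transcription in kb (horizontal axis), for the 8 genes in MEL cells (left, red) and ES-EP (right, blue). Solid and dashed lines are PU.1 ChIP preparations A and B, grey is input, and triangles mark the 8 windows called in MEL cells and the 7 called in ES-EP. Alas2 has its peak in both cell types with little input under it, whereas the peaks at the starts of Alas1 and Cpox in ES-EP have as much input.

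Alas2 had the window with the smallest Poisson p in both cell types. In the window centred 2832 bp downstream of its start, the MEL libraries held 4, 9, 12 and 22 reads (A1, A2, B1 and B2) with 1 input read, and the ES-EP libraries held 18, 34, 4 and 17 with 0 and 4 input reads. Every preparation was above the scaled input, by 9.76 and 20.8 times in MEL cells (A and B) and by 15.5 and 5.54 times in ES-EP. The ratio of the summed reads was 15.9 in MEL cells with an interval of 2.71 to 639 and 10.2 in ES-EP with an interval of 3.82 to 38.5. The order of A and B was opposite in the cell types, and the difference between preparations of 1 cell type was larger than that between the cell types.

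The neighbouring window, centred at 2332 bp, held 5, 8, 9 and 10 reads in MEL cells with 3 input reads and 10, 12, 3 and 6 in ES-EP with 1 read in each input library. Its ratios were 3.60 in MEL cells (interval 1.13 to 18.4) and 8.68 in ES-EP (interval 2.21 to 74.8). Over both windows together the site held 26 and 53 reads in MEL cells (A and B), against 74 and 30 in ES-EP. This gave a ratio of 6.66 in MEL cells (interval 2.50 to 25.1) and of 9.70 in ES-EP (interval 4.31 to 27.0). The Poisson p-values of the window at 2832 bp were 2.27e-18 (MEL cells) and 1.38e-34 (ES-EP), and it was called under 7 of 7 alternative settings in ES-EP and under 6 of 7 in MEL cells, where leaving out preparation B ended the call (the exchange of inputs described further on is not among the 7). In the remaining 84 windows of Alas2 no preparation held more than 8 reads.

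**Figure D2:**
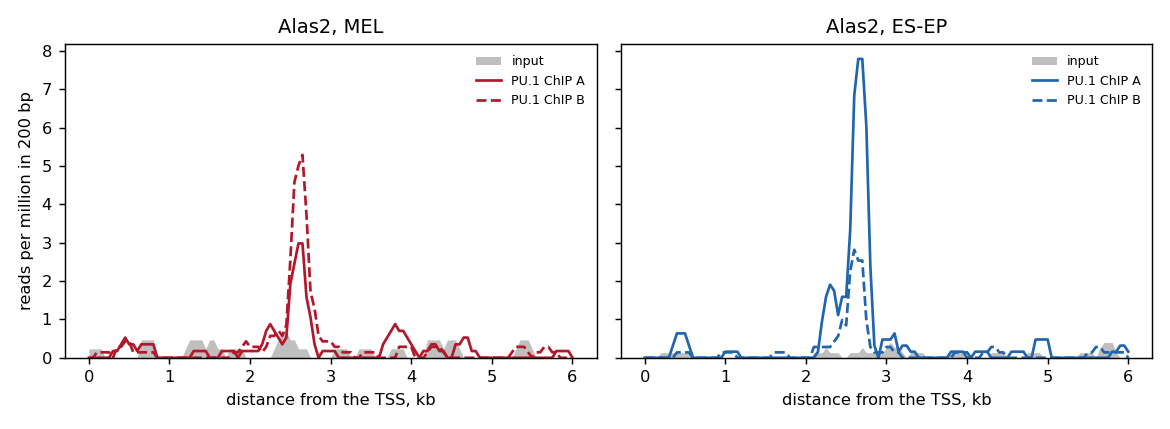
RPM in 200 bp (vertical axis) every 50 bp along the first 6 kb of Alas2 (horizontal axis, distance from the start of transcription), in MEL cells (left) and ES-EP (right). Solid and dashed lines are ChIP preparations A and B and grey is input. The 4 ChIP preparations are highest between 2600 and 2700 bp, where input is at most 0.267 RPM.

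Input itself differed over this gene. The input reads of the Alas2 region were 1.73 times as many in MEL cells as in ES-EP after scaling (interval 1.28 to 2.35), those of the region with 1 Mb on each side 1.92 times and those of the X chromosome 1.52 times, whereas the autosomes lay between 0.713 and 1.30 times. Dividing by input of the same cell type adjusts for such a difference, and the comparison of ChIP reads between the cell types is not adjusted for it.

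Uros encodes uroporphyrinogen III synthase. The window centred 8004 bp from the start taken for the gene held 2, 6, 6 and 6 reads in MEL cells with 1 input read, and 6, 13, 2 and 15 in ES-EP with 2 and 1 input reads. Both preparations were above input in each cell type, at 6.01 and 7.35 times in MEL cells, against 7.55 and 5.98 times in ES-EP. The summed ratios were 6.75 (interval 1.08 to 280) and 6.72 (interval 2.12 to 34.1), and the calls held under 6 of 7 alternatives in MEL cells, and in ES-EP under 7 of 7. The window lies 548 bp inside the innermost annotated start of Uros (base 140894299 of chromosome 7), and the densest point of its reads fell in the intron between bases 140893606 and 140894012.

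A second Uros window lay over the main cluster of its starts, 5 of them between bases 140900641 and 140900964. Here the reads were 3, 8, 8 and 10 in MEL cells with 2 input reads, and 5, 12, 5 and 13 in ES-EP with 0 and 7 input reads. Its ratio was 4.89 in MEL cells, against 2.80 in ES-EP, with intervals of 1.24 to 42.3 and 1.22 to 7.47. It was called in ES-EP and missed the threshold in MEL cells (exact Poisson test p = 3.66e-04 against a threshold of 1.08e-04), and its log2 fold change between the cell types was -0.22 ± 0.61 (SE, limma voom). The call in ES-EP held under 3 of 7 alternatives, and in MEL cells the window was called under 2 of 7.

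Urod, which encodes uroporphyrinogen decarboxylase, had a window called in both cell types at -1232 bp from its start. This window held 4, 8, 7 and 16 reads in MEL cells with 2 input reads, and 14, 26, 7 and 15 in ES-EP with 7 and 9 input reads. The ratios were 5.90 in MEL cells (interval 1.52 to 50.7) and 2.17 in ES-EP (interval 1.24 to 4.03). The window overlaps the first exon of Hectd3, a ubiquitin ligase gene that is read in the other direction, and its centre lies 328 bp past the start of that gene. The start of Hectd3 is the nearest one, and the reads cannot be given to one of the genes by position alone.

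The Cpox and Fech windows were called in MEL cells only, and both lie at the start of their gene. Cpox encodes coproporphyrinogen oxidase, and the window centred 430 bp downstream of its start held 6, 8, 11 and 19 reads in MEL cells, against 9, 22, 7 and 19 in ES-EP. Scaled to depth these were 2.46 and 4.29 RPM in MEL cells (A and B), against 4.93 and 3.66 in ES-EP, so that the ranges of the cell types overlapped. The input at the same place was 3 reads in MEL cells, against 10 and 21 in ES-EP, or 0.701 and 4.14 RPM. The ratio was accordingly 4.95 in MEL cells (interval 1.59 to 24.9) and 1.03 in ES-EP (interval 0.653 to 1.65).

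Fech showed the same arrangement of values. The window over its start held 3, 5, 9 and 14 reads in MEL cells, against 8, 22, 3 and 17 in ES-EP, with 4 input reads in MEL cells, against 5 and 15 in ES-EP. The ratio was 2.61 in MEL cells (interval 0.924 to 10.2) and 1.40 in ES-EP (interval 0.818 to 2.48). ChIP gave 1.40 and 3.29 RPM in MEL cells, against 4.77 and 2.82 in ES-EP, while input gave 0.935 and 2.67.

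The calls changed with the input that stood beside the ChIP reads. With the input of ES-EP in place of its own, the MEL ChIP had 3 called windows at the 8 genes, the pair in Alas2 and the intronic one of Uros, and the calls at Alas1, Urod, Cpox, Ppox and Fech were lost. With the input of MEL cells the ES-EP ChIP gained calls at Cpox, Ppox and Fech and in a window of Alas1 that was not called otherwise, lost those at Alad, at the Uros starts and in the Alas1 window over Tlr9, and had 8 in all. Over the genome the exchange gave 15284 called windows in place of 21686 in MEL cells, and 19305 in place of 14613 in ES-EP. This exchange was chosen after the inputs had been seen.

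Alas1 had no called window at its start, although the ChIP reads there were among the highest of the 8 genes. The window centred 206 bp downstream of its start held 11 and 19 reads in MEL cells (A and B), against 30 and 17 in ES-EP, with 4 input reads in MEL cells, against 37 in ES-EP. Input was 0.935 RPM in MEL cells against 4.94 in ES-EP, so that in ES-EP input lay above both preparations (4.77 and 2.40).

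The Alas1 windows that were called lie far downstream, where the nearest start is that of Tlr9, a toll-like receptor gene of innate immunity. The window 17706 bp downstream, called in MEL cells, held 3, 8, 1 and 8 reads there with no input read, and 6, 4, 1 and 2 in ES-EP with 0 and 4 input reads. Against a floor of 3 input reads, MEL ChIP was at least 2.25-fold higher than input, a bound without the counting error of the ChIP reads, and the lower limit of the exact interval, which has it, was 1.67. The window at 21706 bp lies over an exon of Tlr9 and was called in ES-EP, with 4, 4, 1 and 11 reads and a ratio of 2.80 (interval 0.937 to 11.3). In MEL cells it held 1, 1, 3 and 7 reads with 7 input reads, a ratio of 0.578. Both calls were lost when either preparation was left out.

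Alad, the aminolevulinate dehydratase gene, and Ppox, the protoporphyrinogen oxidase gene, had their calls outside the gene as well. The Alad window, 13702 bp downstream of its start, was called in ES-EP with 4, 14, 4 and 6 reads and 0 and 1 input reads, a ratio of 15.7 (interval 2.59 to 641). Against the local input used for the call it was 2.92 times the expected count, and the call held under 4 of 7 alternatives. In MEL cells it held 2, 0, 2 and 8 reads with 3 input reads, a ratio of 1.35 (interval 0.364 to 7.45). The nearest start is that of Hdhd3, with the window at -3940 bp from it, a gene that encodes a protein of the haloacid dehalogenase family. The Ppox window, at -6434 bp from its start, was called in MEL cells with 1, 5, 3 and 9 reads and no input read, at least 2.02-fold higher than input by the same floor (lower limit of the exact interval 1.48), and held 2, 5, 5 and 9 reads in ES-EP with 4 and 4 input reads. It lies 304 bp past a start of Usp21, a gene for a ubiquitin-specific protease.

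**Figure D3:**
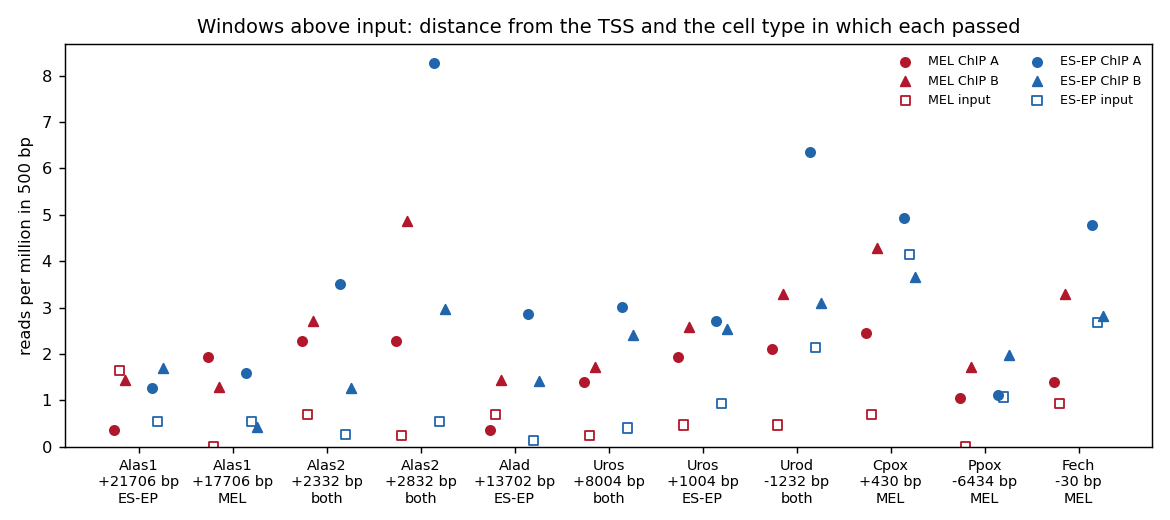
RPM in 500 bp (vertical axis) for the 11 called windows (horizontal axis, named by gene, distance from its start and the cell type with the call). Filled circles and triangles are ChIP preparations A and B and open squares are input, red for MEL cells and blue for ES-EP. At Cpox and Fech the blue squares lie near the blue ChIP points. In both windows of Alas2 and both windows of Uros all ChIP points lie above both squares.

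The promoters were then compared with input as 1 kb centred on 1 start per gene, by the exact binomial test (two-sided) of the reads of both preparations. None of the 8 promoters passed in either cell type at an adjusted p below 0.05, beside 15.6% of all promoters in MEL cells and, for ES-EP, 11.1%. Before adjustment, 2 of them were above input at a p below 0.05 in MEL cells, those of Cpox and Fech, and in ES-EP 0, beside 24.4% and 17.5% of all promoters. limma voom over ChIP and input columns called 0 of the 8 in both cell types as well, but it called only 1.62% of all promoters in MEL cells and, for ES-EP, 2.03%. The median ratio of the 8 promoters was 1.46 in MEL cells, against 1.07 in ES-EP, and that of all promoters with an input read was 1.69 and 1.24.

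Cpox had the highest promoter ratio in MEL cells. Its promoter held 13 and 32 ChIP reads there (A and B) with 5 input reads, a ratio of 3.04 (interval 1.21 to 9.80, exact binomial test adjusted over all promoters p = 0.0726). Fech held 9 and 26 reads with 4 input reads, a ratio of 2.95 (interval 1.06 to 11.4, adjusted p = 0.163). Preparation B gave the higher ratio for both, 3.92 against 1.95 for Cpox and 3.98 against 1.69 for Fech. In the same test without preparation A both passed, with adjusted p = 0.0109 for Cpox and 0.0217 for Fech, and without preparation B neither did (0.768 and 0.915). The width and placement of the counted stretch mattered as well. Fech had a ratio of 11.1 in 500 bp (33 ChIP reads and 1 input read), where it passed, and of 1.64 in 2 kb, where it did not, whereas Cpox missed the threshold in 500 bp with a ratio of 2.02 and passed in 2 kb with 2.62. The ratio of 11.1 at Fech rested on 1 input read. The called Fech window, as wide but centred at -30 bp, held 4 input reads and had a ratio of 2.61 (interval 0.924 to 10.2). Cpox also passed with input scaled outside called windows (exact binomial test, adjusted p = 0.0354).

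In ES-EP the highest promoter ratio was that of Urod, with 14 and 9 ChIP reads, 6 input reads and a ratio of 2.15 (interval 0.849 to 6.44). In 2 kb around the start the ratio was 2.69, with an adjusted p of 0.0215 in the exact binomial test. This wider stretch, with 48 ChIP and 10 input reads, also takes in the start of Hectd3. The pass in 2 kb can therefore not be given to Urod alone. Alad had the most reads of the 8 promoters, 21 and 45 in MEL cells, against 43 and 45 in ES-EP, and also the most input, 17 and 44 reads. Its ratios were 1.31 and 1.12, and by ChIP reads alone its promoter stood at percentile 90.9 of all promoters in MEL cells and percentile 88.9 in ES-EP. The Alad ratio in ES-EP was 0.949 without input library 1 and 1.78 without input library 2.

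Alas1 was at 2.02 in MEL cells (interval 0.845 to 5.88) and 0.761 in ES-EP (interval 0.494 to 1.18). The value in ES-EP moved with single input libraries and preparations. Input library 2, with 5051235 of the 7488885 input reads of ES-EP, held 31 of the 39 input reads of this promoter. The ratio was 1.21 without that library and 0.645 without input library 1. It was 1.04 without ChIP preparation B and 0.514 without preparation A. The Alas2 promoter held 4 and 5 reads in MEL cells with 3 input reads and 5 and 2 in ES-EP with 5. Its ratios were 1.01 (interval 0.253 to 5.81) and 0.784 (interval 0.214 to 3.13). These values stand apart from the site 2.6 kb further on, which the promoter interval does not reach. Ppox was at 0.675 and 0.865 and Uros at 0.562 and 1.03.

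The start taken for Uros lies 791 bp upstream of its main cluster. Centred on the median start, an alternative chosen after this had been seen, the Uros promoter held 41 reads in MEL cells, against 50 in ES-EP, with ratios of 1.38 and 1.87 and adjusted p = 0.766 and 0.222 in the exact binomial test.

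**Figure D4:**
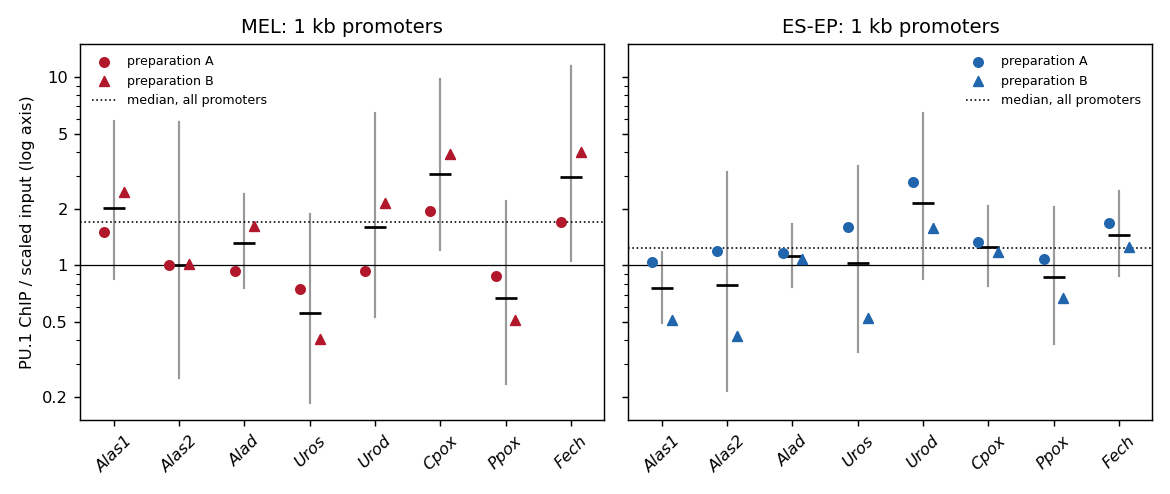
Ratio of PU.1 ChIP to scaled input (vertical log axis) in the 1 kb promoters of the 8 genes, in MEL cells (left) and ES-EP (right). Circles and triangles are preparations A and B, dashes the ratio of the summed reads, bars its 95% counting interval and the dotted line the median of all promoters, 1.69 in MEL cells, against 1.24 in ES-EP. Only the bars of Cpox and Fech in MEL cells stay above 1.

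At the starts with the most reads, scaled input was lower in MEL cells. No difference of input at the heme synthesis genes passed the limma voom test given below, whereas over all promoters 95 did. The promoter input of MEL cells and that of ES-EP were 1.40 and 5.21 RPM at Alas1, 1.17 and 3.47 at Cpox, 0.935 and 2.94 at Fech and 3.97 and 5.88 at Alad. In limma voom over the 7 ChIP and input columns, the log2 difference of input, MEL cells minus ES-EP, was -1.61 ± 0.80 (SE) at Alas1, -1.43 ± 0.82 at Cpox, -1.50 ± 0.86 at Fech and -0.34 ± 0.76 at Alad, with adjusted p = 0.291, 0.375, 0.375 and 0.899. MEL cells have 1 input library, so the test takes their spread from the other groups.

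The 4 preparations were then compared directly between the cell types. With limma voom on ChIP reads, no promoter passed an adjusted p of 0.05 (0% of 22359, with 1369 at an unadjusted p below 0.05, and in limma trend 0 with 1297), and none of the 8 genes did. The log2 fold changes of the 8 promoters, MEL cells minus ES-EP, ran from -0.79 at Fech to 0.54 at Alas2, with standard errors between 0.60 and 0.70. Their median was -0.41 and that of all promoters -0.22, which median-ratio scaling moved to 0.06. Fech had -0.79 with a 95% interval of -2.08 to 0.49, Alas1 -0.50 with -1.77 to 0.77 and Cpox -0.43 with -1.70 to 0.85. The interval of Alas2 was -0.92 to 2.00. With intervals of this width, similar occupancy was not shown either.

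Set against input in limma voom, 5 of the 8 promoters had the opposite sign, and which ones did depended on the fit. The log2 difference of the ChIP to input ratios was 1.12 ± 1.01 (SE) at Alas1, 1.01 ± 1.04 at Cpox and 0.71 ± 1.06 at Fech, higher in MEL cells, where the ChIP reads alone were lower. It was -0.12 ± 1.29 at Alas2 and -0.66 ± 1.12 at Uros, where the ChIP reads alone were higher in MEL cells by the same fit. By the ratios of summed reads given above, Alas1, Cpox and Fech were again higher in MEL cells, but so was Alas2 (1.01 against 0.784), which kept its sign, and Alad (1.31 against 1.12), which did not. None of the 8 passed (limma voom, smallest adjusted p = 0.941). Over all 22359 promoters 0 passed as well, with 1357 at an unadjusted p below 0.05.

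In windows with at least 20 reads over the 4 preparations, 157 of 65012 (0.241%) differed between the cell types, and none of the 42 such windows of the 8 genes did. The smallest p of the 42 in limma voom was 0.123 before adjustment and 0.790 after it. All 11 called windows were among the 42, and 9 of them had fewer scaled ChIP reads in MEL cells (8 with median-ratio scaling, where Ppox turned to 0.05), with log2 fold changes between -1.03 and 0.95 and a median of -0.58. Over all 65012 windows the median was -0.09, and leaving out a preparation moved that to between -0.33 and 0.15. The Alad window had -1.03 ± 0.70 (SE), the one of Alas1 at 17706 bp 0.95 ± 0.61 and the stronger one of Alas2 -0.58 ± 0.64. Windows called in only 1 cell type, such as those of Cpox (-0.39 ± 0.64) and Ppox (-0.13 ± 0.60), were thus not shown to differ between the cell types.

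**Figure D5:**
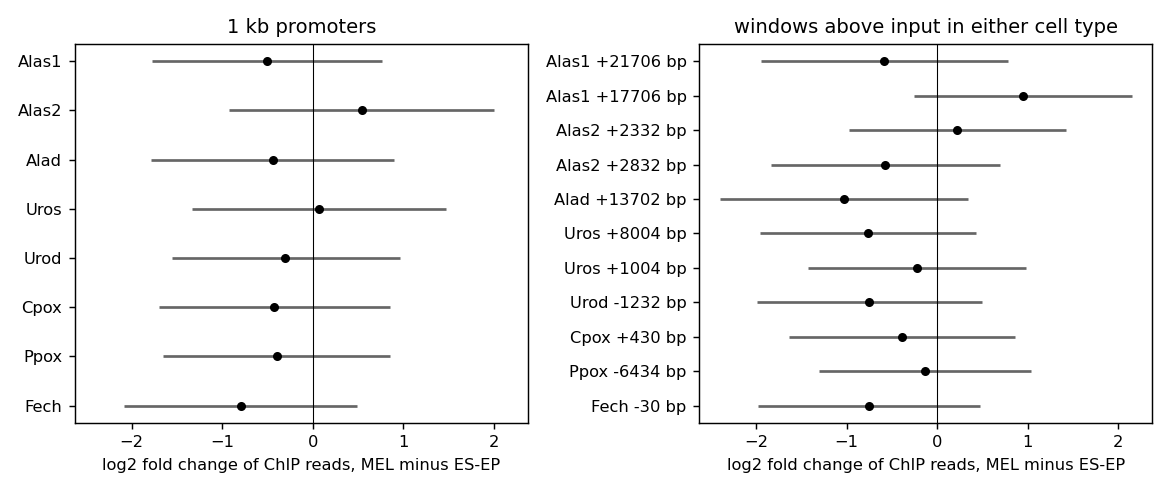
Log2 fold change of PU.1 ChIP reads, MEL cells minus ES-EP (horizontal axis), with 95% intervals from limma voom over 2 preparations of each cell type, for the 8 promoters (left) and the 11 called windows (right). Every interval includes 0, and the points lie between -1.03 and 0.95.

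Over the whole region of a gene, the ratios ran from 0.693 at Alad to 1.30 at Alas2 in MEL cells and from 0.992 at Alas1 to 1.67 at Alas2 in ES-EP. Alas2 was the gene with the interval above 1 in both cell types, 1.02 to 1.66 and 1.31 to 2.15. Its region counts include the 2 called windows of the intron, so this is no separate result. Those windows held 26 and 53 of the 138 and 204 region reads in MEL cells (A and B). In ES-EP they held 74 and 30 of 161 and 108. The ratio of the region without them is not given here. In MEL cells the intervals of Alad (0.589 to 0.817), Urod (0.618 to 0.977) and Fech (0.651 to 0.948) lay below 1.

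The words searched on both strands were GAGGAA and CCGGAAGT for Ets factors, AGATAA for GATA factors and GGGCGG for Sp1-like factors. GAGGAA occurred in 3 of the 11 called windows, at Alad, at Alas1 (17706 bp) and at the Uros starts, and it occurs in 54.8% of all windows called in MEL cells, 64.1% of those called in ES-EP and 39.3% of all windows without unknown bases. At Alad it lay 40 bp from the densest point of the reads, at Alas1 44 bp and at the Uros starts 311 bp from it. CCGGAAGT occurred in 0 of the 11 and in 3.55% and 3.98% of all called windows and 0.308% of all windows. AGATAA occurred in 4 of the 11, including both Alas2 windows, beside 18.2% and 26.8% of all called windows and 30.0% of all windows. Its nearest match lay 98 and 71 bp from the densest points in the Alas2 windows, 129 bp at the Uros starts and 160 bp at Fech. GGGCGG occurred in 5 of the 11, at Cpox, Fech, Urod, Ppox and the Uros starts, beside 46.1% of the windows called in MEL cells, 30.8% of those called in ES-EP and 4.58% of all windows. The 5 windows have a GC content of 62.6% to 73.0%.

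In the 1 kb promoters GAGGAA was found at 3 of the 8 genes (Alas1, Alas2 and Uros) beside 64.0% of all promoters, and CCGGAAGT at 0 beside 6.95%. AGATAA was found at 5 beside 6703 of the 22359 promoters, and GGGCGG at 7 beside 59.9%, with Uros the exception. A match is a description of letters and no site, and a word not found says only that these letters are not in the window.

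For comparison, 21 other genes of heme handling (transport, breakdown, heme A and iron-sulfur supply) were counted in the same way, and all were matched, Flvcr1 and Flvcr2 under other symbols. Of these, 6 promoters were above input in MEL cells, against 3 in ES-EP, 2 of them in both, beside the 15.6% and 11.1% of all promoters. The share of all promoters called in both is not given here. Slc25a39, a mitochondrial carrier needed for heme synthesis, held 35 and 86 reads in MEL cells with 6 input reads and 177 and 96 in ES-EP with 22, ratios of 6.80 and 6.95 (exact binomial test, adjusted p = 9.93e-08 and 5.84e-28). Slc48a1, a heme transporter, held 25 and 43 reads with 7 input reads and 47 and 17 with 13, ratios of 3.28 and 2.76.

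Among the promoters called in 1 cell type, that of Cox10, which acts in heme A synthesis, was called in ES-EP with 14 and 22 reads and 4 input reads, a ratio of 5.04, and held 3 and 23 reads in MEL cells with 2 input reads. Tmem14c, a porphyrin carrier named after its value was seen, was the one below input at an adjusted p of 0.0403 in MEL cells (exact binomial test), with 3 and 10 ChIP reads and 13 input reads. None of the 21 differed between the cell types in limma voom, and none had an unadjusted p below 0.05. The median ratios of the 21 were 2.45 in MEL cells, against 1.33 in ES-EP.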

How the data were processed

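PU.1 ChIP and input DNA of MEL cells and ES-EP were sequenced on an Illumina GAII. The authors aligned reads with ELAND (version not stated) to mm9 and kept unique alignments with up to 2 mismatches. Each line of the deposited files is the position of 1 aligned read and no other value, so every count was made here. The 8 genes, the lists and the tests were chosen with earlier results of these data known.

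The 5′ ends were moved by 70 bp (MEL) or 65 bp (ES-EP) toward the fragment's middle and counted in 500 bp windows and in 1 kb around 1 start per gene, the one shared by most transcripts, or the outermost of equals (GENCODE on NCBIM37). For calling, repeated reads of a library (same position, same strand) were counted once, and the values use all reads. The expected count was the highest of 5 scaled input values, for the window itself, the surrounding 1, 5 and 10 kb and the whole genome. Promoters were tested with scipy 1.17.1 and the cell types compared with limma 3.58.1 (voom) in R 4.3.3, Benjamini-Hochberg over all promoters or windows. The letters A and B in the labels were read as the duplicate chromatin preparations of the study. The numbers after them were read as libraries of a preparation. Whether the preparations came from separate cultures is not given in the sources used here, so the p-values may measure technical spread. Between 1.59 and 9.00% of the reads of a library repeat a position, with the lowest share in the MEL input. The share was 8.27 to 9.00% in the ChIP libraries numbered 1 and 2.84 to 6.56% in those numbered 2. The calls and the fit were also run on simulated data with known changes, as a check of the code and not of the calls made here. Named beside the 8 genes were genes whose start is nearest to a called window and, of the other heme genes, those called in both cell types with the 4 highest ratios, those called in 1 with the 2 highest and any that differed. A gene that this rule names is not reported here. Alternatives changed the width, the start, repeated reads, scaling, filters, the model and the samples left out.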

Additional observations from a re-analysis of the deposited data

Results flagged for a closer look

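For 3 values the preparations of MEL cells lay below input and those of ES-EP above it. Over the Alad region the ratio of ChIP to input was 0.693 in MEL cells (A 0.599, B 0.769) against 1.07 in ES-EP (A 1.08, B 1.07), a log2 difference of -0.63, MEL cells minus ES-EP. Over the Urod region it was 0.775 in the former (A 0.609, B 0.910) and 1.21 in the latter, where both preparations were above 1, a log2 difference of -0.64. In the Alas1 window 21706 bp downstream, within Tlr9, it was 0.578 (0.215 and 0.875) and 2.80 (2.38 and 3.17), a log2 difference of -2.28. Input in this window was 1.64 RPM in MEL cells (7 reads) against 0.534 in ES-EP (4 reads), and the log2 fold change of ChIP reads alone was -0.59 ± 0.70 (SE, limma voom). These differences of ratios were not tested. The scaled input of MEL cells was 1.22 times that of ES-EP over the Alad region (interval 1.02 to 1.45) and 1.51 times over the Urod region (interval 1.16 to 1.96), and the part of input in them was not tested.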

How the results depend on the processing

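The count of windows of the 8 genes called in MEL cells was 8, with 21686 over the genome. Leaving out a preparation gave 0 (without B) to 8 (without A), with 5305 to 17036 called over the genome. Rates below 0.01 gave 8 (15096 over the genome), and input in the window and the genome mean alone gave 10 (25003). The input of ES-EP, chosen after seeing the data, left 3 (15284 over the genome). In ES-EP the count at the 8 genes was 7, with 14613 over the genome. Leaving out a preparation gave 2 to 5 with 3050 to 12779 over the genome. Rates below 0.01 gave 4 (10302 over the genome), input in the window and the genome mean alone 9 (20763) and the input of MEL cells 8 (19305). Of the 8 promoters 0 were called in MEL cells, but 1 with 500 bp (Fech), 1 with 2 kb (Cpox), 1 with input scaled outside called windows (Cpox) and 0 to 2 without 1 preparation. In ES-EP 0 were called, and 1 with 2 kb (Urod, where the stretch also holds the start of Hectd3). Over all promoters, 3479 were called in MEL cells, 2315 with 500 bp, 3876 with 2 kb and 4100 with input scaled outside called windows. There were 363 with limma voom and 905 to 5145 without 1 preparation. In ES-EP 2489 were called, 2892 with 2 kb and 1326 when 2-fold was asked of each preparation. There 453 were called with limma voom and 1003 to 3564 without 1 ChIP preparation or input library.

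Between the cell types no alternative called a promoter or window of the 8 genes. Over all promoters the count of 0 became 340 with median-ratio scaling, which moved the median log2 fold change from -0.22 to 0.06, 17 with at least 20 reads, 22 with 2 kb, 77 with 8 libraries and 0 to 1 without 1 preparation. Over windows 157 became 1743 with limma trend, 1369 with median-ratio scaling, 386 with at least 10 reads and 0 to 1 without 1 preparation. With the letter as replicate block 4 promoters and 10 windows were called. Deviations of same-lettered preparations correlated at -0.156 over promoters and 0.00835 over windows, so the letters were not taken as pairs, and the letters crossed, added after this was seen, gave 1736 promoters. The causes were not tested. Of 127 log2 fold changes of the 8 promoters under alternatives, 17 changed sign, and 7 of 88 of the called windows did. Of the promoter ratios, 6 of 63 in MEL cells and 12 of 79 in ES-EP moved to the other side of 1. With 0 to 7 MEL input reads at the 11 called windows, depth leaves their ratios within wide intervals.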
